A study of Mus musculus with 2 samples.

Results

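Mir137 is the locus of miR-137, a microRNA enriched in neurons, and it was taken as the row of its Ensembl identifier, ENSMUSG00000065569, in both deposited tables. It is 1 of 1973 miRNA loci in each table. Small RNA was sequenced from the forebrain of newborn B6NCrl mice (postnatal day 0), with 1 library from the single forebrain of pup 3 and 1 from that of pup 1. Both libraries start from total RNA. The labels name no treatment or altered allele, give both pups the same donor entry, and state that sex was not collected. The series holds a single group and compares no conditions, so the results are the level of Mir137, its place among other loci and the difference between these 2 libraries.

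MicroRNAs are cut from hairpin precursors and loaded into Argonaute proteins, where bases 2 to 8, the seed, pair with target messenger RNAs and lower their output. miR-137 is known from brain, where it rises as neural progenitors become neurons and represses chromatin regulators such as Ezh2 and Kdm1a. It also acts at synapses, and its human locus lies in a region linked to schizophrenia.

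The hairpin is shown first because the level of Mir137 rests on a sequence that no other annotated miRNA locus shares. It lies at chr3:118433857-118433929 on the plus strand (GRCm38.p6), and in the sequence the capitals mark the 5p arm (bases 9 to 31) and the 3p arm (bases 45 to 67), with 13 bases of loop between them, as RefSeq gives them.
Mir137 hairpin: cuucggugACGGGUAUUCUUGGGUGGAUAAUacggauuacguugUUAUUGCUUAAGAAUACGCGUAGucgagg

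The predicted fold of these 73 bases had 30 base pairs and a free energy of −31.2 kcal/mol, and 20 of the 23 bases of the 3p arm paired with the 5p arm. The deposited counts are per hairpin and do not separate its arms. The mature arms follow, with the seed in capitals, to show that neither seed belongs to another mature miRNA.
miR-137-3p: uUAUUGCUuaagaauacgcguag
miR-137-5p: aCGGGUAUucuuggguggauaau

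None of the other RefSeq mature miRNAs (1679 names in all) had the seed of either arm. Among 1894 annotated loci with a row and a sequence, the longest run of bases that Mir137 shared with another hairpin on the same strand was 11, with Mir383 and Gm23061. The full hairpin and each arm were found on either strand in transcripts of 2 genes out of 141767 transcripts searched, Mir137 itself and Gm26871, the transcript that contains it, and allowing 1 mismatch added no gene. No genome sequence was used, so copies outside annotated transcripts were not searched for. Each deposited table gives reads of several places in a row of their own, outside the loci, and no annotated copy was found through which reads of Mir137 could fall into that row.

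Mir137 lies in an exon of a noncoding host. Gm26871 has 6 annotated transcripts, and the hairpin lies within an exon in 2 of them, exon 3 of Gm26871-202 and exon 1 of Gm26871-201. A further 3 transcripts begin close to the hairpin's end. Gm26871-205 starts 7 bases before its last base, Gm26871-203 starts 4 bases after it and Gm26871-204 starts 37 bases after it. These small RNA libraries do not measure the host. The nearest miRNA locus on chromosome 3, Gm24155, begins after a gap of 791 bases on the same strand (118434721 to 118434830). It had 1 count in pup 3 and 0 in pup 1, beside 56571 and 77520 counts at Mir137. The only other miRNA locus with a row within 1 Mb, Gm24811, lies 585204 bases upstream on the minus strand and had no count in either pup. It shares a run of 20 bases with 75 other loci, so its reads may be left out as reads of several places.

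**Figure D1:**
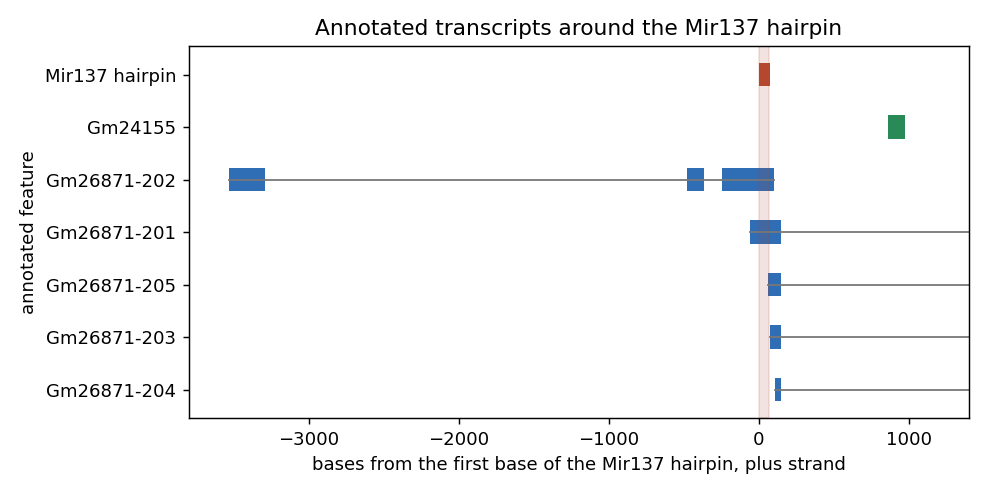
Annotated features around the Mir137 hairpin, drawn by distance in bases from its first base on the plus strand, with bars for exons or hairpins and lines for introns. Mir137 lies within an exon of Gm26871-202 and Gm26871-201, the other 3 drawn transcripts begin near its end, and Gm24155 follows 791 bases after it.

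Mir137 was among the 10 loci with the most gene-strand counts in the newborn forebrain. It held 2.33% of gene-strand counts in pup 3 (56571 of 2427066, Clopper-Pearson interval at 95%, 2.31 to 2.35%) and 2.83% in pup 1 (77520 of 2742746, 2.81 to 2.85%). As CPM (counts scaled to a library total of 1000000) these levels were 23308 in pup 3 and 28264 in pup 1, a mean of 25786 ± 3504 (SD, n = 2). Pup 1 had the higher share, and the intervals of the 2 libraries did not overlap. The intervals cover counting error of reads only. No molecular identifiers are named that would set amplified copies apart, so the intervals may be too narrow for molecules. All counts lay on the strand of the gene. The opposite strand had 0 counts in both libraries, which allows up to 0.00530% of the counts at the locus in pup 3 and 0.00387% in pup 1.

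The denominator sets the size of this share. In pup 3, 44.1% of reads were multimapping and belong to no locus, against 42.2% in pup 1. As a part of all reads, Mir137 held 0.962% in pup 3 (56571 of 5883027) and 1.16% in pup 1 (77520 of 6657203), a mean of 1.06% ± 0.143. Among mapped reads, those of several places included, it held 1.10% and 1.34%. Pup 1 remained the higher library with each of these denominators.

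By level, Mir137 stood at rank 9 of all rows in the mean of both pups, at rank 7 in pup 3 and at rank 8 in pup 1. It was also at rank 9 among the 987 loci that share no run of 20 bases with another hairpin. Loci that share such a run are ranked without their reads of several places. The 3 loci just above Mir137 in the mean were Mir149, Mir487b and Mir335, and the order against each of them turned round between the pups. Mir137 had 0.910 times the counts of Mir149 in pup 3 (95% exact interval 0.900 to 0.920) and 1.04 times in pup 1 (1.03 to 1.05). Against Mir487b, from the imprinted Dlk1-Dio3 region, it had 1.08 times the counts in pup 3 and 0.910 times in pup 1, and against Mir335, in the imprinted Mest gene, 1.07 and 0.942 times. The mean share of Mir137 differed from that of each of these 3 by less than its SD.

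The loci just below were Mir99b, Mir130a and Mirlet7b, and Mir137 was higher than each in both pups. Mir99b came closest in pup 3, where Mir137 had 1.02 times its counts (95% exact interval 1.01 to 1.03), against 1.36 times in pup 1 (1.34 to 1.37). The mean difference from Mir99b, 0.397% of the counts, was only slightly above the SD of Mir137 (0.350%). Over Mir130a the ratio was 1.35 in pup 3 and 1.53 in pup 1. Over Mirlet7b, of the let-7 family, it was 1.23 and 2.09.

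Mir137 led the neuron-enriched list. The 15 loci of this list, all with a row and 13 detected with at least 10 counts in both pups, held 4.52% of the counts in pup 3 and 5.22% in pup 1. Mir137 alone made up 51.5% of the list in pup 3 (95% exact interval 51.2 to 51.8%) and 54.1% in pup 1 (53.9 to 54.4%), a mean of 52.8% ± 1.84. The other 14 loci together held 2.19% of the counts in pup 3 and 2.39% in pup 1, less than Mir137 in either library. Most of these 14 share sequence with a copy and are counted without their reads of several places. The part held by Mir137 may therefore be too high, and these counts do not show that miR-137 exceeded the other miRNAs together.

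The mature arms usually taken as the active ones in the other members are shown because they differ in how many hairpins make them. Capitals mark the seed, and the sequences are those of RefSeq (GRCm38.p6).
miR-128-3p: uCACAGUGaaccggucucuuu
miR-153-3p: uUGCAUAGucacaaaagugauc
miR-132-3p: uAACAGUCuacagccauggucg
miR-212-3p: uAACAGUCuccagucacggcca
miR-138-5p: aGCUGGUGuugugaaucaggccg
miR-129-5p: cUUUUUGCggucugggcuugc
miR-218-5p: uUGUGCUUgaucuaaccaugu

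Of these, miR-132-3p and miR-212-3p share their seed with each other, and none shares the seed of miR-137. miR-128-3p, miR-138-5p, miR-129-5p and miR-218-5p are each held by 2 hairpins, whereas both arms of miR-137, and the arms shown of miR-153, miR-132 and miR-212, are held by 1. In all, 4 of the 15 loci share no run of 20 bases with another hairpin: Mir137, Mir153, Mir132 and Mir212. Among these 4, Mir137 held 85.0% of the counts in pup 3 and 81.8% in pup 1, a mean of 83.4% ± 2.26. The levels of the other 11 loci leave out their reads that map to several places, so the ratios of Mir137 over them may be too high. How much too high was not tested. Ligation and amplification also favour some sequences over others, which touches every ratio between loci.

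Of the loci with copies, the miR-128 pair, of a miRNA that regulates neuronal excitability, came next to Mir137. Mir128-1, in an intron of R3hdm1, had 11337 CPM in pup 3 and 10765 CPM in pup 1. Mir137 had 2.06 times its counts in pup 3 and 2.63 times in pup 1, a mean ratio of 2.34 ± 0.403. Mir128-2, in an intron of Arpp21, had 4309 CPM in pup 3 and 3858 CPM in pup 1, and Mir137 had 5.41 and 7.33 times its counts.

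Among the loci without copies, Mir153, whose targets include synaptic vesicle genes, had 2237 CPM in pup 3 and 4077 CPM in pup 1. Mir137 had 10.4 times its counts in pup 3 and 6.93 times in pup 1, a mean ratio of 8.68 ± 2.46. Mir132, which is induced by neuronal activity through CREB, had 1776 CPM in pup 3 and 2082 CPM in pup 1. Mir137 stood 13.1 and 13.6 times above it. Its partner Mir212, from the same primary transcript, had 91.1 and 118 CPM, and Mir137 stood 256 and 239 times above it. The ratio to Mir132 was thus nearly the same in both libraries, and that to Mir153 was not.

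The remaining loci covered a wide range below these. Mir138-1 and Mir138-2, of a miRNA that limits dendritic spine size, averaged 1269 ± 296 and 612 ± 151 CPM. Mir129-2 and Mir129-1, of a miRNA that acts on a potassium channel in dendrites, averaged 452 ± 119 and 170 ± 26.3 CPM, and Mir218-2 and Mir218-1 averaged 78.0 ± 26.9 and 15.1 ± 3.89 CPM. The 3 loci of miR-124, a miRNA known as abundant in neurons, had almost no counts: Mir124a-1 had 21 in pup 3 and 15 in pup 1, Mir124a-2 had 4 and 5, and Mir124a-3 had 2 and 3. Each of these 3 shares a run of 20 bases with the other copies, so the counts do not show that miR-124 was low. Of the 14 pairs of neighbours in this order, 11 differed by more than the larger SD. The exceptions were Mir128-2 and Mir153, whose order turned round in pup 1, Mir153 and Mir132, and Mir212 and Mir218-2.

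**Figure D2:**
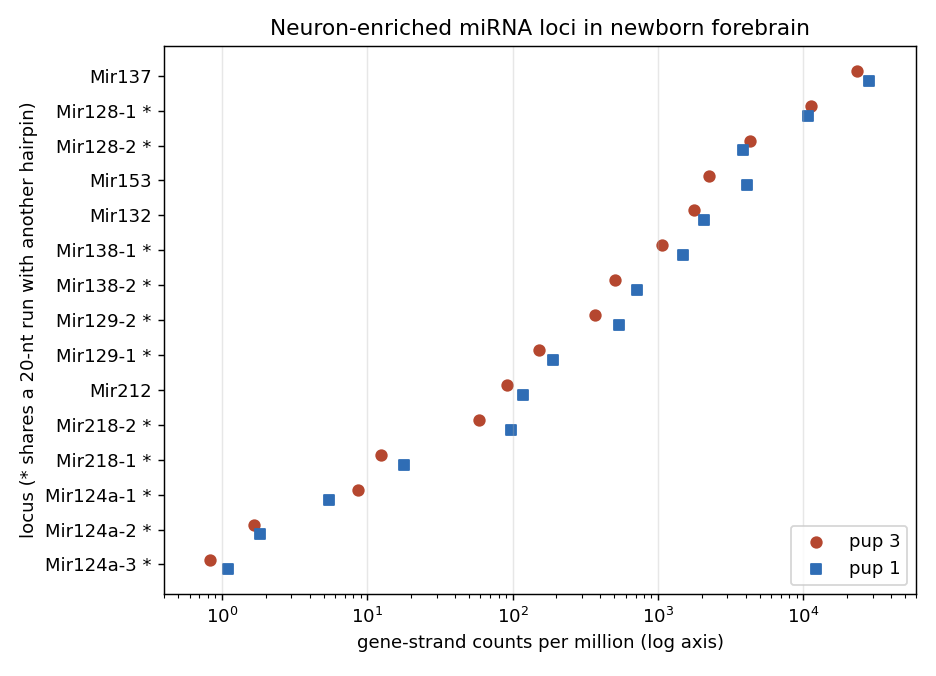
Level (CPM) of the 15 neuron-enriched loci (log axis) in pup 3 (circles) and pup 1 (squares), ordered by the mean, and a star marks a locus that shares a run of 20 bases with another hairpin. Mir137 stands highest in both libraries, at 23308 CPM in pup 3 and 28264 CPM in pup 1.

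Of the marker lists of other cell types, that of blood vessel held the most counts, most of them at Mir126a (mean 33045 CPM). The neural progenitor and pan-neural list (5 of 6 loci with a row) held 0.881% of the counts in pup 3 and 0.951% in pup 1, the blood vessel list 3.94% and 3.50%, and the multiciliated list 0.493% and 0.820%. The oligodendrocyte, white blood cell (4 of 5 loci with a row), red blood cell, muscle and liver lists each held under 0.1% in both pups. Of the 7 muscle loci, 4 were at 0 in both. All these shares leave out reads that map to several places, so a low share or a 0 does not show that a miRNA was low. In bulk tissue, fewer neurons and less miR-137 per neuron cannot be told apart.

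Between the libraries, the ratio of Mir137 lay close to the median of the tested loci, around which the loci spread widely. Relative to library totals its log2 ratio of pup 3 over pup 1 (CPM + 1) was −0.28 (95% exact interval −0.29 to −0.26, 0.825-fold), with a two-sided Fisher's exact test, adjusted by Benjamini-Hochberg over 400 loci with at least 10 summed counts, at p = 5.50e-274. This test has 1 library on each side and compares these libraries, not conditions. It called 56.5% of all tested loci and called 46.2% lower in pup 3, so the call at Mir137 is read against a background in which more than 2 of 5 loci were called in the same direction. The median log2 ratio of the tested loci was −0.31, and 53.5% of them had a lower ratio than Mir137. With DESeq2 size factors as the scale, which put the median of the tested loci at −0.02, the log2 ratio of Mir137 was 0.04 (adjusted exact binomial p = 3.14e-05), among 24.5% of loci called higher in pup 3 and 20.8% called lower. With TMM it was −0.03 (adjusted exact binomial p = 0.00160), among 46.5% of loci called, 20.5% higher and 26% lower. Its direction therefore depended on the scale, and relative to the median of all loci it lay 0.04 to 0.05 above on each scale. Of the 20 most abundant loci, 4 had a lower ratio than Mir137, and their median was −0.02 with library totals.

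The spread of Mir137 between the animals depended on the scale as well. With library totals its coefficient of variation was 13.6%, against a median of 18.1% over the 331 detected loci. Of these, 34.4% varied less than Mir137, as did 12 of the 20 most abundant loci. With TMM the coefficient was 1.34%, against a median of 13.5%, and 6.95% of the detected loci varied less. With DESeq2 size factors it was 1.74%, against a median of 13.0%, and 8.46% varied less. The coefficients with TMM and DESeq2 size factors were chosen after seeing the data. With 1 library per animal, the coefficient restates the size of the ratio between the libraries and is not a separate result.

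**Figure D3:**
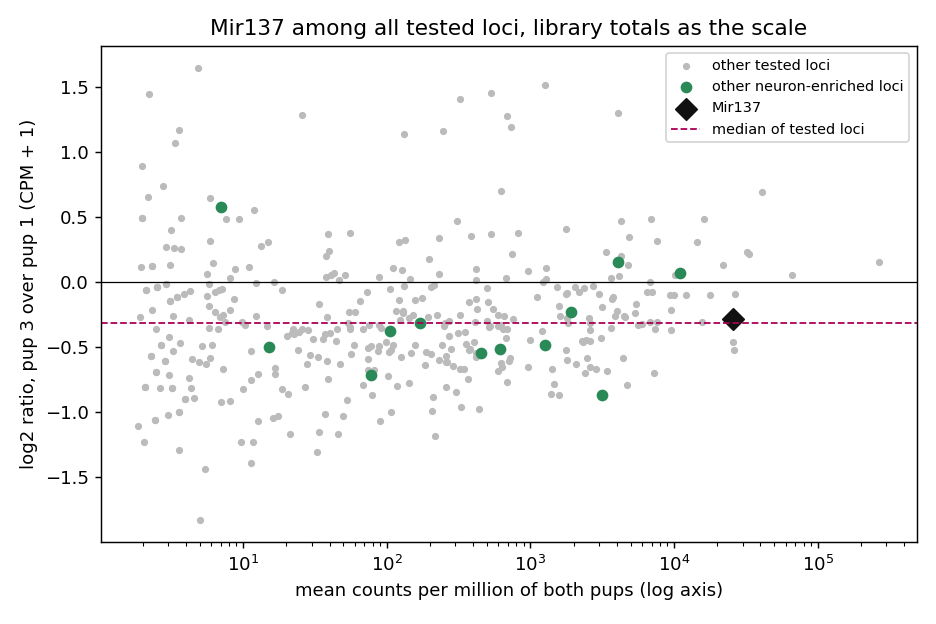
Log2 ratio of pup 3 over pup 1 against the mean CPM of both pups (log axis) for the 400 tested loci, with library totals as the scale. Mir137 (diamond) lies at −0.28, next to the median of the tested loci at −0.31 (dashed line), and the other neuron-enriched loci (green) lie on both sides of it.

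The ratio of Mir137 to another locus within a library needs no scaling, and comparing it between the pups shows how each locus moved relative to Mir137. In a two-sided Fisher's exact test of the counts of Mir137 and each of 399 other loci, adjusted over all of them, 45.1% of the loci were called. Mir137 gained on 23.1% of the loci in pup 3 and lost against 22.1%. Among the 12 tested neuron-enriched loci it gained on 5, lost against 2, and 5 did not pass.

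The gains were on Mir153, Mir218-2, Mir129-2, Mir138-2 and Mir138-1. Relative to Mir153 the log2 change of Mir137 was 0.59 (95% exact interval 0.54 to 0.64, adjusted Fisher's exact p = 3.15e-123), and for the other 4 it ran from 0.20 to 0.44. Mir137 lost against both miR-128 loci, with a log2 change of −0.35 for Mir128-1 (interval −0.38 to −0.32, adjusted Fisher's exact p = 1.47e-129) and of −0.44 for Mir128-2 (−0.48 to −0.40). All these called loci but Mir153 share a run of 20 bases with another hairpin. Their changes are those of reads placed at 1 locus and need not be those of the miRNA. Mir132 did not pass, at −0.05 (interval −0.11 to 0.01, adjusted Fisher's exact p = 0.202), nor did its partner Mir212, at 0.10 (−0.15 to 0.35). Mir129-1, Mir218-1 and Mir124a-1 did not pass either, and the interval of Mir218-1 (−0.43 to 0.96), and that of Mir124a-1 with its 21 counts in pup 3 and 15 in pup 1, are wide enough to hold changes in both directions. Mir137 included, the neuron-enriched loci did not all move one way between the animals. With library totals 2 of 13 were called higher in pup 3 (10.2% of all loci) and 9 lower (46.2% of all loci), with a median log2 ratio of −0.37 beside −0.31 for all. With DESeq2 size factors 4 were called higher (24.5% of all loci) and 5 lower (20.8% of all loci), with a median of −0.06 beside −0.02 for all.

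**Figure D4:**
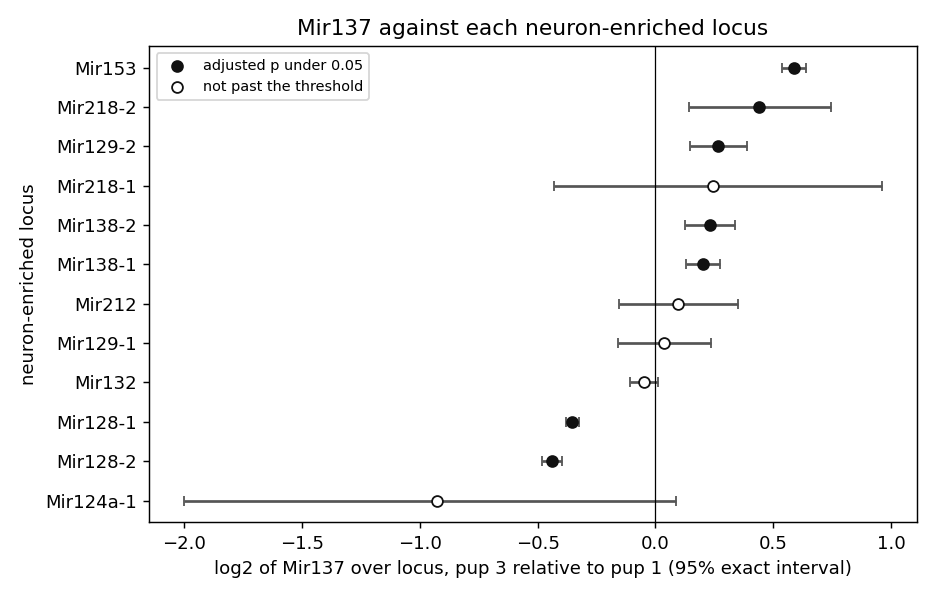
Log2 change of the ratio of Mir137 over each tested neuron-enriched locus, pup 3 relative to pup 1, with 95% exact intervals and filled points where the test passed. The change was 0.59 for Mir153, on which Mir137 gained, and −0.44 for Mir128-2, against which it lost. All loci shown but Mir153, Mir132 and Mir212 share sequence with a copy and are counted without reads of several places.

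The loci whose ratio between the pups was most like that of Mir137, by the absolute difference of log2 ratios over these 2 libraries among 176 other loci with at least 1000 summed counts, were Mir101b, Mir101a, Mir484, Mir106b and Mir421. Mir101b and Mir101a, which differ from Mir137 by 0.000462 and 0.00139, make almost the same miRNA. Mir137 had 14.4 times the counts of Mir101b in both pups, and 34.2 and 34.1 times those of Mir101a. Mir101b and Mir101a each share a run of 20 bases with another hairpin. They are counted without their reads of several places, so these ratios may be too high. Mir484 had 2325 CPM in pup 3 and 2807 CPM in pup 1, Mir106b 4168 and 5011 CPM, and Mir421 176 and 211 CPM. With 2 libraries such likeness is common: 83 of the 399 other tested loci (20.8%) lay within 0.1 of the log2 ratio of Mir137.

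The shares of marker lists also differed between the libraries. The multiciliated list had 3 of 5 loci called lower in pup 3 and none higher, both with library totals, where 46.2% of all tested loci were called lower, and with DESeq2 size factors, where 20.8% were. The blood vessel list had 1 of 3 called higher and 2 lower with library totals (10.2% and 46.2% of all loci), and 2 higher and none lower with DESeq2 size factors (24.5% and 20.8% of all loci). Outside these lists, and picked after their values were seen, the 5 loci of the miR-200 family, known from epithelia, held 0.932% of the counts in pup 3 and 0.368% in pup 1. The 3 loci of the miR-183 cluster, known from sensory organs, held 0.215% in pup 3 and 0.0881% in pup 1. All 8 loci were called higher in pup 3 with library totals (10.2% of all loci) and with DESeq2 size factors (24.5% of all loci). As these loci were picked by their values, the calls are no test of them. Their log2 ratios were 1.14 to 1.51 with library totals, beside −0.28 for Mir137. The part of these lists and loci in the ratio of Mir137 was not tested.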

How the data were processed

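The authors deposited raw read counts per miRNA gene, without normalization, 1 table per library. Per the labels the assembly is mm10, and per the text deposited with the files the annotation is release M4. The sources used here give neither aligner nor counter. Each table has 3 columns of counts (both strands, gene strand and opposite strand, inferred from how the columns add up) and 4 rows that name no gene, which were left out of totals. In pup 3, 12.3% of reads were unmapped and 2.27% lay on no locus, against 13.4% and 3.23% in pup 1. Names and positions came from GENCODE M21 on GRCm38, the assembly of mm10, and sequences from RefSeq (GRCm38.p6), which held 1 hairpin for Mir137. Of the 1973 rows, 79 had no match and at most 1 count.

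From the gene-strand counts, shares, CPM, exact intervals at 95% and a floor of 3 counts for 0 were computed. Fisher's exact test, at an adjusted 0.05, was run on loci reaching 10 counts over both libraries. The design has 1 group, so no count model has a contrast, and edgeR and DESeq2 gave only scaling factors. Neither library is a copy of the other, since a chi-square test of their counts gave 209 per degree of freedom at 331 loci. Tests were checked on simulated counts that varied by counting error only, so that check does not cover variation between animals.

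The loci named are Mir137, the neuron-enriched list, the 3 loci on either side of Mir137 by mean share, the 5 loci of at least 1000 summed counts with the nearest log2 ratio, miRNA loci within 1 Mb and any with its seed. Mir137 and the lists were chosen with earlier results of these data known. Alternatives were the unstranded column, other denominators, scalings, filters, a pseudocount, a shorter run, a mismatch and leaving out a pup. Tools were R 4.3.3 with edgeR 4.0.16 and DESeq2 1.42.0, ViennaRNA 2.7.2 (RNA folding), and Python 3.11.15 with scipy 1.17.1, pandas 2.3.3, numpy 2.4.6 and matplotlib 3.10.9.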

Additional observations from a re-analysis of the deposited data

How the results depend on the processing

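The share of Mir137, 2.58% of gene-strand counts in the mean, was 3.52% without the counts of Mir99a, the locus with the most counts, in the denominator, 1.06% of all reads and 1.22% of mapped reads. The share of the neuron-enriched list, 4.87%, was 6.66% without Mir99a, 2.01% of all reads and 3.36% when restricted to loci that share no run. These changes follow from the denominators and from the loci left out. Rank 9 became 7 to 8 with a single pup, and the mean ratio of Mir137 over the next neuron-enriched locus, 2.34 over Mir128-1, became 8.68 over Mir153 when loci that share a run were left out. With a single pup the share of Mir137 ran from 2.33 to 2.83%, that of the list from 4.52 to 5.22%, and the ratio over Mir128-1 from 2.06 to 2.63.

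The log2 ratio of Mir137 between the pups, −0.28 with library totals, kept its sign and its call with TMM and 5 other settings (−0.28 to −0.03) and was 0.0354 with DESeq2 size factors. DESeq2 size factors also turned the sign of Mir132 (0.0838), Mir149 (0.22), Mir130a (0.21), Mir101b (0.0357), Mir101a (0.0336), Mir484 (0.0420), Mir106b (0.0476) and Mir421 (0.0479), and TMM that of Mir132 (0.0210), Mir149 (0.16) and Mir130a (0.15). These changes follow from the scale, which moved the median of the tested loci by 0.30 with DESeq2 and 0.24 with TMM. Of the calls between the pups, 41 were higher and 185 lower in pup 3 with totals, 82 and 104 with TMM, and 98 and 83 with DESeq2. The count of loci whose ratio differed from that of Mir137, 180, ran from 146 to 188 under the other columns, filters and loci. As a share of the loci tested, 45.1% became 25.7% with no filter and 63.5% at 100 or more summed counts, where fewer low loci were tested. The coefficient of variation of Mir137, 13.6%, was 1.34% with TMM and 1.74% with DESeq2 size factors, an alternative chosen after seeing the data. No paired analysis was possible because the series has a single group. With 2 animals, a difference in level between loci is known only to the spread of 2 values, and the counts do not separate the arms of the hairpin.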
